A study of Mus musculus with 6 samples.

Results

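The nuclear pore and karyopherin genes are the 41 protein-coding genes of the count table, out of 26286 rows, whose Entrez Gene identifier maps to a mouse symbol beginning with Nup and a digit, Kpna, Kpnb, Ipo and a digit, or Xpo. They comprise 21 pore genes and 20 genes of soluble transport factors. The rule used names and no measured value. RNA sequencing was done on 6 samples of leukemia cells sorted from mouse bone marrow, 3 from mice fed doxycycline (dox) for 3 days, in which GFP-mid cells were taken, and 3 from untreated mice (0 days), in which GFP-high cells were taken. All 6 came from leukemia A024, described as tri-transgenic, grown in Rag1 knockout mice. As background from the published model and not from the labels, its transgenes are the hematopoietic driver Vav-tTA, an activated Stat5 and a tetracycline-regulated hairpin against the B lineage factor Pax5 linked to GFP, so that dox lets Pax5 return. Both groups carry all of these alleles. The libraries thus represent a single leukemia. The sample titles number the libraries and do not say that each came from a different mouse. Only if so do p-values cover mouse-to-mouse spread within this leukemia. Dox, Pax5 and the sort gate changed together and cannot be told apart.

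The nuclear pore is the channel through which proteins and RNA cross the nuclear envelope. Its scaffold is built of an outer ring of Y-shaped complexes and an inner ring, anchored by membrane proteins, and its channel is filled by nucleoporins rich in phenylalanine-glycine repeats that karyopherins bind as they pass. Importins take cargo into the nucleus and release it on binding Ran-GTP, whereas exportins bind cargo together with Ran-GTP. Dividing mouse cells build new pores in interphase and take their pores apart in mitosis.

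Library totals lay between 14185203 and 15612435 counts, and Pax5 measured 227.2 to 281.2 counts per 1000000 (CPM) in dox libraries and 93.45 to 153.8 CPM in untreated ones (log2 fold change 1.07, SE 0.17, adjusted p = 0.000695, edgeR). The members together took 0.52%, 0.534% and 0.559% of all counts in dox replicates 1, 2 and 3, against 0.716%, 0.772% and 0.769% in untreated replicates 1, 2 and 3. All 8 B lineage markers checked were present, 7 of them higher and 1 (Cd24a) lower after dox, with a summed level of 8262 to 8866 CPM in dox libraries and 6022 to 6151 CPM in untreated ones. Of 8 neutrophil markers 7 rose and 1 (Elane) was not tested. Their summed level was 496.8, 105.2 and 235.5 CPM in dox replicates 1, 2 and 3, against 82.6 to 106.9 CPM in untreated libraries. Of 7 macrophage markers 6 rose, and their sum was 25.35 to 33.5 CPM after dox, against 6.24 to 11.5 CPM in untreated libraries. The T and NK cell genes Cd3e and Cd8a were at 0 counts in all libraries, and the 7 markers of these cells summed to 2.63 to 9.54 CPM in dox and 3.01 to 4.76 CPM in untreated libraries. Erythroid markers summed to 1.53 to 8.69 CPM in dox and 4.09 to 6.92 CPM in untreated libraries.

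After dox, 33 of the 39 members tested were lower, 1 was higher and 5 did not pass the test. Among all 12275 genes tested, 26.6% were lower and 27.0% higher (edgeR quasi-likelihood test, p adjusted by Benjamini-Hochberg across the whole table and under 0.05), 53.6% together. Of 20 pore genes tested 18 fell and 1, Nup210, rose. Of 19 transport factor genes tested 15 fell and 0 rose, and 0 were higher at an unadjusted p under 0.05 or by DESeq2 or limma voom. The median log2 fold change was −0.63 for pore genes and −0.55 for transport factor genes, beside 0.01 for all genes. Dox and untreated libraries did not overlap for 18 pore and 15 transport factor genes, and this held for 62.2% of all genes. Among genes called lower, the estimated fall was at least 1.5-fold for 11 pore and 6 transport factor genes, against 11.8% of all genes. It was at least 2-fold for 2 and 1, against 3.86%. These calls were made against no change and not against those folds. In bulk RNA, fewer cells of a type and less RNA per cell cannot be told apart.

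**Figure D1:**
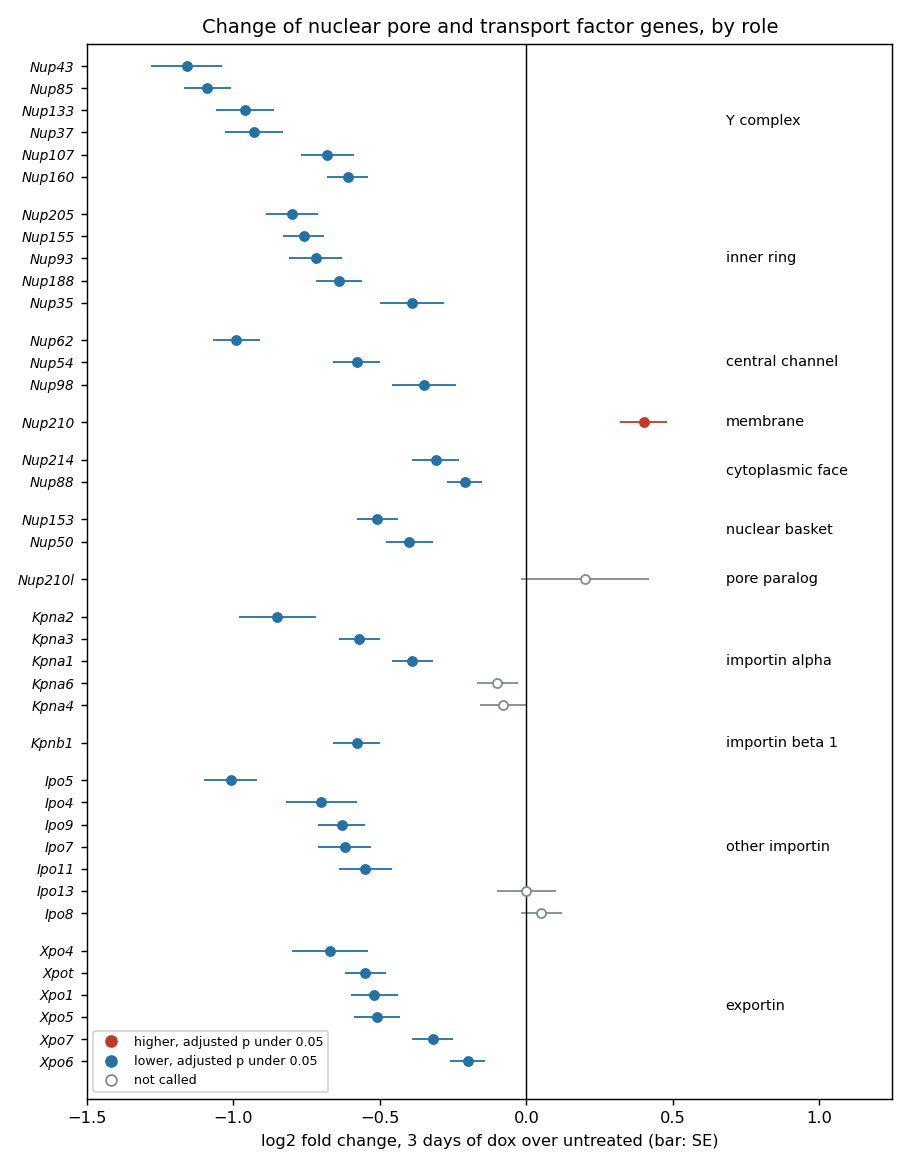
Log2 fold change (x axis, 3 days of dox over untreated) with its standard error for the 39 members tested, grouped by role, where filled points passed an adjusted p under 0.05. The 6 Nup genes grouped under the Y complex lie between −1.16 and −0.61, and Nup210 at 0.40 is the only filled point right of 0.

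Levels are given as CPM per kilobase of deposited gene length (RPKM), so that genes can be set side by side. Summed over the 21 pore genes, the level was 547.3, 552.5 and 572.2 RPKM in dox replicates 1, 2 and 3, against 757.2, 846 and 828.6 RPKM in untreated replicates 1, 2 and 3. The sum over the 20 transport factor genes was 627.9, 629.9 and 694.6 RPKM after dox, against 919.9, 990.6 and 975.3 RPKM in untreated libraries. Both sums thus separated the groups, at 68.8% and 67.7% of the untreated mean. The macrophage sum separated the groups too and the neutrophil sum overlapped between them, and a part of either in these results was not tested.

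All 6 Nup genes grouped under the Y complex, the outer ring of the scaffold, fell, with a median of −0.94 on the log2 scale. Nup98, whose precursor also yields a subunit of this complex, was grouped with the central channel and changed by −0.35 (SE 0.11). Smaller falls were measured for 3 genes of this complex that carry other names, Seh1l (−0.41, SE 0.07, adjusted p = 0.000751, edgeR), Sec13 (−0.22, SE 0.08, adjusted p = 0.0391, edgeR) and Ahctf1 (−0.22, SE 0.07, adjusted p = 0.026, edgeR). Nup85, a short-arm subunit, had 34.5, 33.4 and 33.5 RPKM in dox replicates 1, 2 and 3, against 65.8, 71.3 and 79.1 RPKM in untreated replicates 1, 2 and 3. All dox values lay below all untreated ones and closer together. By edgeR it changed by −1.09 on the log2 scale (SE 0.08, adjusted p = 1.09e-05). Nup43, a beta-propeller subunit, changed by −1.16 (SE 0.12), Nup133, at the tip of the stem, by −0.96 (SE 0.10) and Nup37, another beta-propeller subunit, by −0.93 (SE 0.10). Nup107, of the stem, changed by −0.68 (SE 0.09) and Nup160, of the long arm, by −0.61 (SE 0.07). Per length, Nup85 stood highest of the 6 in both groups, and Nup43 and Nup133 lowest, at 11.8 ± 2.04 and 12.6 ± 0.997 RPKM after dox and 26.5 ± 1.23 and 24.4 ± 2.77 RPKM untreated (SD, n = 3), so that this last pair did not differ beyond its spread. Antisense transcripts of other genes cover 10.4% of the exonic bases of Nup133 in the annotation.

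All 5 inner ring genes fell, with a median of −0.72. Nup155, which links the ring to the membrane, had 15.1, 15.0 and 15.0 RPKM in dox replicates 1, 2 and 3, against 23.4, 26.6 and 26.3 RPKM in untreated replicates 1, 2 and 3. The dox libraries were nearly equal and all lay below the untreated ones. By edgeR it changed by −0.76 (SE 0.07, adjusted p = 3.43e-05). Nup93, which organises the ring, changed by −0.72 (SE 0.09), and the large paralogous scaffold genes Nup205 and Nup188 by −0.80 (SE 0.09) and −0.64 (SE 0.08). Other annotated genes cover 4.55% of the exonic bases of Nup188 on the same strand and 7.88% on the opposite strand. The level of Nup205 over that of Nup188 was 1.48, 1.36 and 1.64 in dox replicates 1, 2 and 3, against 1.62, 1.67 and 1.70 in untreated replicates 1, 2 and 3, and these ratios overlapped between groups (exact two-sided permutation test, p = 0.2, and 0.244 adjusted over the 11 shares and ratios computed). Nup35, a small membrane-binding linker, had the lowest level of the ring, 5.50 ± 0.651 RPKM after dox and 7.20 ± 0.481 RPKM untreated (SD, n = 3), and changed by −0.39 (SE 0.11, adjusted p = 0.0177, edgeR). That call was lost without untreated replicate 1 (adjusted p = 0.0544, edgeR) and without untreated replicate 2 (adjusted p = 0.055, edgeR).

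Of the genes of the central channel, whose proteins form the barrier of phenylalanine-glycine repeats, all 3 fell. Nup62, the hub of the channel complex, had 46.05, 46.7 and 49.5 RPKM in dox replicates 1, 2 and 3, against 85.8, 98.8 and 97.7 RPKM in untreated replicates 1, 2 and 3. The groups were far apart. The change was −0.99 on the log2 scale (SE 0.08, adjusted p = 1.31e-05, edgeR). Its partner Nup54 changed by −0.58 (SE 0.08). Nup98, whose precursor is cleaved into a mobile channel protein and a Y complex subunit, had 18.4, 22.1 and 19.1 RPKM after dox, against 21.4, 28.4 and 25.9 RPKM in untreated libraries, and these values overlapped. Its change of −0.35 (SE 0.11, adjusted p = 0.0274, edgeR) passed with all libraries. The edgeR adjusted p was 0.071 without dox replicate 1, 0.0714 without dox replicate 3, 0.111 without untreated replicate 2 and 0.0819 without untreated replicate 3.

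Both Nup members of the cytoplasmic face fell by small amounts, while Ranbp2 (−0.13, SE 0.08, adjusted p = 0.17, edgeR) and Nup42, genes of the same face outside the naming rule, did not pass the test. Larger falls were measured for other genes often placed at this face. Gle1 changed by −0.48 (SE 0.07, adjusted p = 0.000556, edgeR), Rae1 by −0.39 (SE 0.06, adjusted p = 0.000909, edgeR) and Aaas by −0.67 (SE 0.08, adjusted p = 0.000147, edgeR). Nup214, to which mRNA export factors dock, had 15.1, 17.7 and 15.6 RPKM in dox replicates 1, 2 and 3, against 18.8, 21.4 and 19.7 RPKM in untreated replicates 1, 2 and 3. The groups lay close without overlapping. The change of −0.31 (SE 0.08, adjusted p = 0.0113, edgeR) had an adjusted p of 0.0538 without untreated replicate 2. Nup88, its binding partner, changed by −0.21 (SE 0.06, adjusted p = 0.0215, edgeR) with an adjusted p of 0.0608 without dox replicate 2, 0.0784 without untreated replicate 2 and 0.0777 without untreated replicate 3. In the nuclear basket, Nup153, an anchor of the basket that binds importins, had 32.1, 33.55 and 33.9 RPKM in dox libraries, against 45.7, 50 and 45.8 RPKM in untreated libraries. All dox values were lower, with a log2 fold change of −0.51 (SE 0.07, adjusted p = 0.00024, edgeR). Nup50, which helps to release importin cargo, changed by −0.40 (SE 0.08).

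Nup210, a large glycoprotein of the pore membrane known to vary between cell types and to be needed for muscle differentiation in mouse cells, rose. Its level was 100.6, 110.6 and 97.5 RPKM in dox replicates 1, 2 and 3, against 72.3, 82.4 and 78.6 RPKM in untreated replicates 1, 2 and 3. All dox values lay above all untreated ones. By edgeR the rise was 0.40 on the log2 scale (SE 0.08, adjusted p = 0.00252) and stayed between 0.35 and 0.44 when any library was left out. Pom121 and Ndc1, genes of pore membrane proteins outside the naming rule, fell instead. They changed by −0.45 (SE 0.09, adjusted p = 0.00264, edgeR) and −0.61 (SE 0.09, adjusted p = 0.000397, edgeR). Nup210 made up 18.4%, 20.0% and 17.0% of the summed pore level in dox replicates 1, 2 and 3, against 9.55%, 9.74% and 9.49% in untreated replicates 1, 2 and 3. Both its rise and the lower sum of the other pore genes enter this share. With 3 libraries against 3, the exact two-sided permutation test of this share gave p = 0.1, the smallest value it allows (0.138 adjusted by Benjamini-Hochberg over the 11 shares and ratios computed). Untreated cells held more Nup62 (94.1 ± 7.2 RPKM) than Nup210 (77.8 ± 5.1 RPKM), while after dox Nup210 (102.9 ± 6.83 RPKM) stood above Nup88 (51.8 ± 2.23 RPKM) and Nup62 (47.4 ± 1.8 RPKM; SD, n = 3). Without Nup210, the pore sum was 446.7, 441.9 and 474.7 RPKM after dox, against 684.9, 763.6 and 750 RPKM in untreated libraries. The Nup210 paralog Nup210l was low, with 92, 55 and 74 counts after dox and 53, 60 and 73 counts untreated, and did not pass the test (0.20, SE 0.22, adjusted p = 0.457, edgeR). Nup62cl had 0 counts in each library, where a level of up to 0.192 to 0.211 CPM could go undetected (3 counts per library, counting error only), and was not tested.

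**Figure D2:**
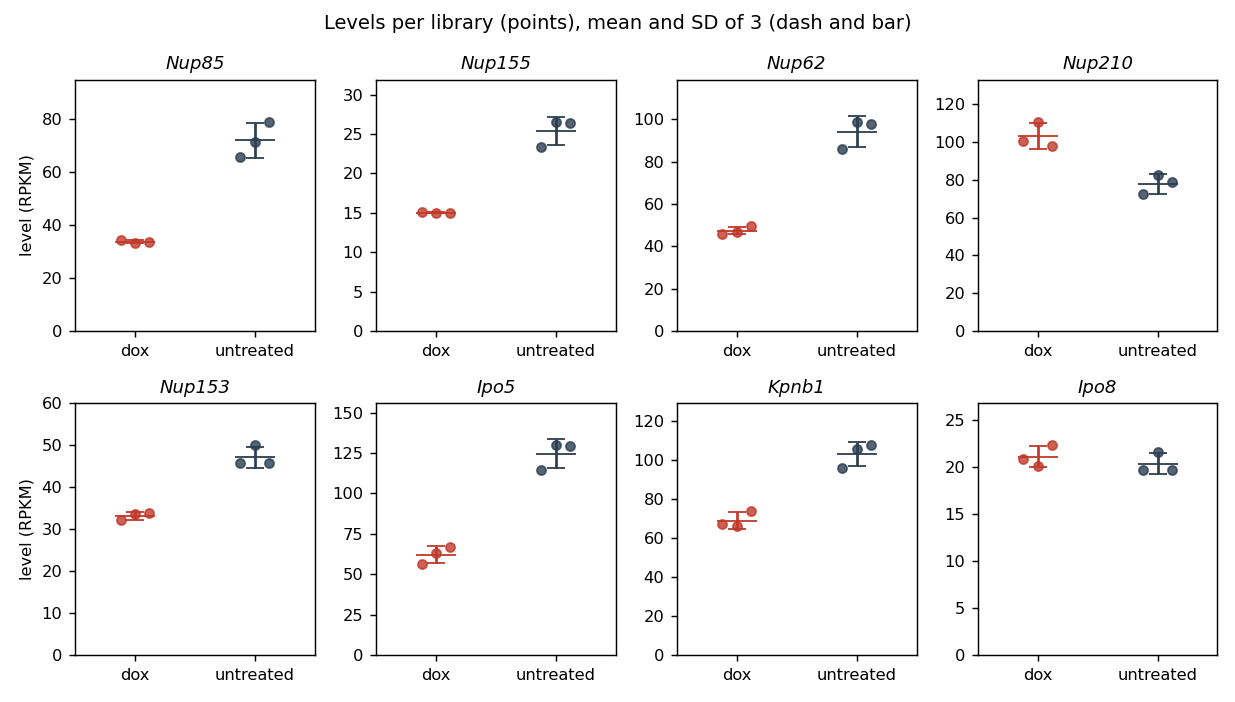
Level in RPKM (y axis, from 0) of 8 members in each of the 3 dox and 3 untreated libraries (points), with mean and SD (dash and bar). Nup210 was higher in every dox library, Ipo8 overlapped between the groups, and the other 6 genes were lower in every dox library.

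Importin beta and its adaptors, the importin alpha proteins that recognise the classical nuclear localisation signal, did not move alike. Kpnb1, the importin beta gene, had 66.85, 65.9 and 73.7 RPKM in dox replicates 1, 2 and 3, against 95.8, 105.4 and 107.4 RPKM in untreated replicates 1, 2 and 3. The groups did not overlap, and edgeR gave a log2 fold change of −0.58 (SE 0.08, adjusted p = 0.000259). Among the importin alpha genes 3 fell and 2 did not pass. Kpna3 had 35.2, 36.3 and 40.8 RPKM in dox libraries, against 56.7, 56.2 and 54.2 RPKM in untreated libraries, a log2 fold change of −0.57 (SE 0.07, adjusted p = 0.000205, edgeR). Kpna2, the adaptor known for its high level in dividing cells, had 82.4, 62.75 and 94.5 RPKM after dox, against 133.6, 151.8 and 146.1 RPKM in untreated libraries. It had the highest mean level of the transport factor genes per length in both groups, but after dox, at 79.9 ± 16.0 RPKM, it did not differ beyond its spread from Kpnb1 (68.8 ± 4.22 RPKM) or Xpo1 (68.7 ± 7.49 RPKM; SD, n = 3). It changed by −0.85 (SE 0.13, adjusted p = 0.000614, edgeR). RefSeq lists a Kpna2 pseudogene, so its counts are less certain. Kpna1 changed by −0.39 (SE 0.07).

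Kpna4, the closest relative of Kpna3, had 47.8, 47.6 and 49.4 RPKM in dox replicates 1, 2 and 3, against 56.0, 49.6 and 47.1 RPKM in untreated replicates 1, 2 and 3. The groups overlapped, and the change of −0.08 (SE 0.08, adjusted p = 0.423, edgeR) did not pass. Kpna6, a relative of Kpna1, had 15.2, 14.0 and 13.6 RPKM after dox, against 15.6, 15.7 and 14.6 RPKM untreated, which overlapped as well (−0.10, SE 0.07, adjusted p = 0.265, edgeR). Kpna2 held 40.1%, 33.9% and 42.0% of the summed importin alpha level in dox replicates 1, 2 and 3, against 45.1%, 49.5% and 49.8% in untreated replicates 1, 2 and 3. Kpna4 held 23.3%, 25.7% and 21.97% after dox, against 18.9%, 16.2% and 16.1% untreated. Neither share overlapped between groups, while that of Kpna3 did, with means of 18.31% after dox and 18.65% untreated. The shares of Kpna6 (means of 7% after dox and 5.12% untreated) and Kpna1 (12.35% and 11.04%) were also higher after dox without overlap. The lower importin alpha sum, with means of 205.1 RPKM after dox and 298.7 RPKM untreated, enters all these shares. The level of Kpna3 over that of Kpna4 was 0.737, 0.764 and 0.826 in dox replicates 1, 2 and 3, against 1.01, 1.13 and 1.15 in untreated replicates 1, 2 and 3. For each of these non-overlapping shares and ratios the exact permutation p was 0.1, or 0.138 after the same adjustment. Kpna7, an importin alpha gene of oocytes and embryos, had 0 counts in every library.

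**Figure D3:**
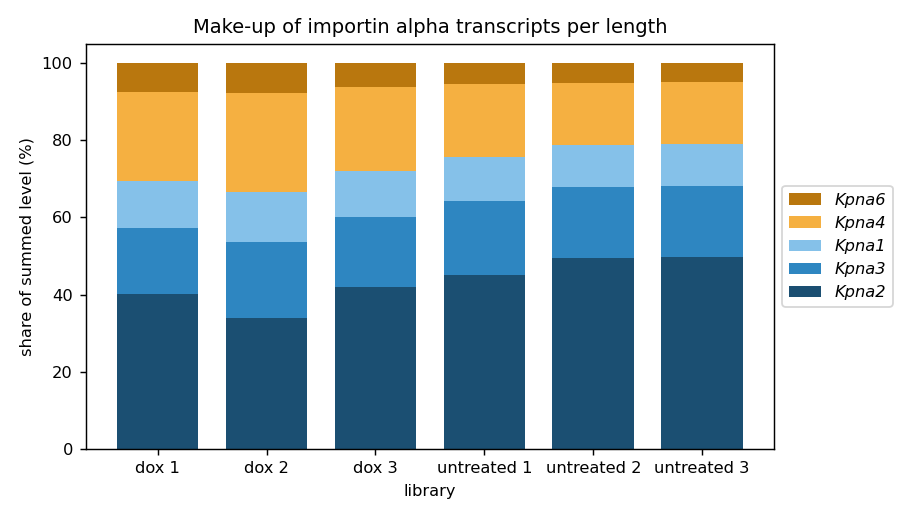
Share of each importin alpha gene in their summed RPKM (y axis, percent) in each library (x axis, dox left of untreated). Kpna2 took 33.9% to 42.0% of the sum after dox, against 45.1% to 49.8% in untreated libraries, and Kpna4 21.97% to 25.7% after dox, against 16.1% to 18.9%.

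Of the 7 other importin genes 5 fell and 2 did not pass. Ipo5, which imports ribosomal proteins and histones, had 56.1, 63.2 and 66.7 RPKM in dox replicates 1, 2 and 3, against 114.4, 129.7 and 129.6 RPKM in untreated replicates 1, 2 and 3. Its log2 fold change of −1.01 (SE 0.09, adjusted p = 2.57e-05, edgeR) was the deepest among transport factors. Ipo7, which carries histones and ribosomal proteins, changed by −0.62 (SE 0.09), Ipo9 by −0.63 (SE 0.08), Ipo11 by −0.55 (SE 0.09) and Ipo4, a histone importer, by −0.70 (SE 0.12). Of the exonic bases of Ipo4, 55.3% are shared with the overlapping annotated gene Gm49378 on the same strand, so its counts are uncertain.

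Ipo8, the close paralog of Ipo7 known to import Smad proteins, had 20.9, 20.1 and 22.3 RPKM in dox replicates 1, 2 and 3, against 19.7, 21.7 and 19.7 RPKM in untreated replicates 1, 2 and 3. Those values overlapped (0.05, SE 0.07, adjusted p = 0.571, edgeR). The level of Ipo7 over that of Ipo8 was 2.82, 3.27 and 3.25 in dox replicates 1, 2 and 3, against 4.84, 4.92 and 5.08 in untreated replicates 1, 2 and 3, without overlap (exact permutation p = 0.1, adjusted 0.138). Ipo13, which works in both directions across the pore, had 19.1, 19.3 and 15.1 RPKM after dox, against 17.9, 17.5 and 18.0 RPKM untreated. Its dox libraries lay on both sides of the untreated ones, with a fold change of 1.00 (SE 0.10 on the log2 scale, adjusted p = 0.994, edgeR).

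All 6 exportin genes fell, with a median of −0.51. Xpot, the exporter of tRNA, had 13.1, 13.85 and 15.2 RPKM in dox replicates 1, 2 and 3, against 20.4, 20.4 and 20.8 RPKM in untreated replicates 1, 2 and 3. The untreated libraries were nearly equal and all higher, with a log2 fold change of −0.55 (SE 0.07, adjusted p = 0.000245, edgeR). Xpo1, also called Crm1, which exports proteins with leucine-rich signals, was the most abundant exportin gene, at 68.7 ± 7.49 RPKM after dox and 98.6 ± 1.84 RPKM untreated (SD, n = 3), and changed by −0.52 (SE 0.08). Xpo5, the exporter of microRNA precursors, changed by −0.51 (SE 0.08), Xpo4 by −0.67 (SE 0.13) and Xpo7 by −0.32 (SE 0.07). Xpo6, which keeps actin out of the nucleus, changed least, by −0.20 (SE 0.06, adjusted p = 0.0235, edgeR), with an adjusted p of 0.0536 without dox replicate 1, 0.0937 without untreated replicate 2 and 0.0669 without untreated replicate 3.

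**Figure D4:**
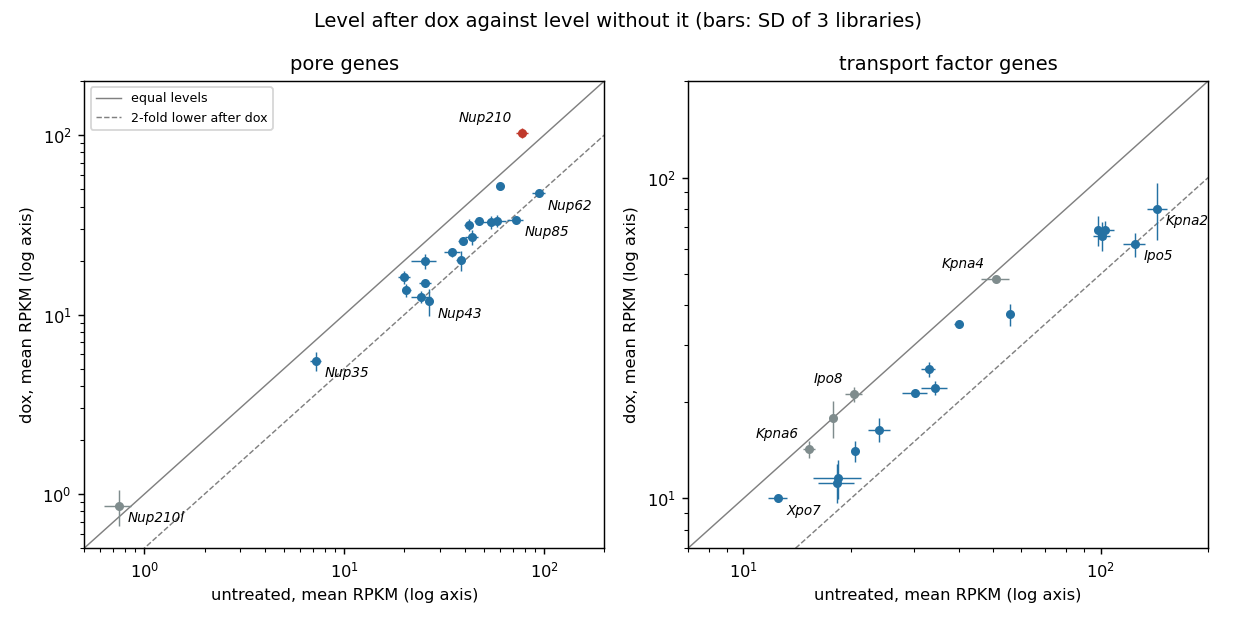
Mean level after dox (y axis) against mean level in untreated libraries (x axis), both in RPKM on log axes with SD of 3 libraries, for pore genes and transport factor genes tested. Most genes lie between the line of equal levels and the line of a 2-fold fall. Nup210 lies above the line of equal levels, as does Nup210l at a low level, with groups that overlapped. Kpna4, Ipo8, Ipo13 and Kpna6 lie near the line of equal levels.

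Genes that act with the members but carry other names moved mostly the same way. Of 39 such genes 29 fell and 2 rose, with a median of −0.39. The values of all genes tested, 26.6% lower, 27.0% higher and a median of 0.01, stand beside this and each list below. Among 10 further pore genes 9 fell and 1, Ranbp2, did not pass. Aaas, which encodes the nucleoporin aladin, changed by −0.67 (SE 0.08). Nup58 and Nup42, which the reference lists under the older symbols Nupl1 and Nupl2, changed by −0.38 (SE 0.09, adjusted p = 0.00517, edgeR) and −0.07 (SE 0.14, adjusted p = 0.679, edgeR). Of 5 further karyopherins 2 fell, Cse1l, which returns importin alpha to the cytoplasm, by −0.56 (SE 0.08) and Tnpo3 by −0.24 (SE 0.07).

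The Ran cycle, which gives transport its direction, had 6 of 7 genes lower and a median of −0.75. Ranbp1, a co-factor of Ran-GTP hydrolysis, had 117.3, 117.6 and 131.6 CPM in dox replicates 1, 2 and 3, against 255.6, 255.0 and 262.7 CPM in untreated replicates 1, 2 and 3. That is a log2 fold change of −1.08 (SE 0.07, adjusted p = 7.12e-06, edgeR). Ran itself changed by −0.84 (SE 0.08), its exchange factor Rcc1 by −0.88 (SE 0.08) and its GTPase activator Rangap1 by −0.75 (SE 0.09). Of 10 mRNA export genes 6 fell and 1 rose. Nxt1, a subunit of the export receptor, changed by −0.65 (SE 0.07), and Ddx19b, a helicase gene with the close copy Ddx19a, rose by 0.32 (SE 0.09), whereas Ddx19a changed by −0.33 (SE 0.07), and reads of these copies may be shared. Of 7 envelope and lamina genes 6 fell and 1 rose, with Lmnb2, a B-type lamin gene, at −0.98 (SE 0.07) and Sun1, an inner membrane protein that binds pores, at 0.28 (SE 0.07).

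Because the members moved together, promoter windows were searched for 3 sets of short words on both strands, the E-box CACGTG bound by Myc and related factors, the E2F words TTTGGCGC, TTTCCCGC, TTTGCCGC and TTTCGCGC, and the ETS word CCGGAAGT. The windows are the 250 bases before each annotated start (RefSeq, GRCm38.p6), which were at hand for 32 of 41 members. Windows of 4 members are shown, those of Nup210, which rose, of Nup188, which fell and held 2 E-boxes, and of the paralogs Ipo7, which fell, and Ipo8, which did not pass. Capitals mark the words found, and each sequence runs 5′ to 3′ on the strand of its gene.
Nup210 (chr6:91116827-91117076, minus strand): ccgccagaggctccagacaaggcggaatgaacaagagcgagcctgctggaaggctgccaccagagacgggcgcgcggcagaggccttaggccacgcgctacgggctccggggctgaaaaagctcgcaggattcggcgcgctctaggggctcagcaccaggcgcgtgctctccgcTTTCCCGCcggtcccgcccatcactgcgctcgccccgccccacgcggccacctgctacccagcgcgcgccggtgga
Nup188 (chr2:30286166-30286415, plus strand): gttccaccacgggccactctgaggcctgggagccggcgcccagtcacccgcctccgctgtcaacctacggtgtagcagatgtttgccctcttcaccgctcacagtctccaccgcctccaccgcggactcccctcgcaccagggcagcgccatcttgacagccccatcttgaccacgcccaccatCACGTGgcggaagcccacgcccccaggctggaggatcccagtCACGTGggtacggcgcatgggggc
Ipo7 (chr7:110018065-110018314, plus strand): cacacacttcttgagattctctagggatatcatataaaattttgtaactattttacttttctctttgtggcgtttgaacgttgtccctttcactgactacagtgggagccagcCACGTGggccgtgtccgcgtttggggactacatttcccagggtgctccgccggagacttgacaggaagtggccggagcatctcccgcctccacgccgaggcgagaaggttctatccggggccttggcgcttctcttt
Ipo8 (chr6:148831468-148831717, minus strand): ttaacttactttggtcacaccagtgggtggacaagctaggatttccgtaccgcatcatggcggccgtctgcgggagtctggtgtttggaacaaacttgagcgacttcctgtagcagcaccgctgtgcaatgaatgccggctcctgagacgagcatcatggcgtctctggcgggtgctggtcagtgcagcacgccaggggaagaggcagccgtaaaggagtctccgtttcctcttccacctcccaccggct

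A gene with several windows was counted if any of them held the word, as for Nup93, whose other window held no searched word. The E-box stood in the windows of 5 members, Ipo7, Nup188, Nup54, Nup93 and Xpot, all of which fell. These are 5 of the 32 members with a window (15.62%), beside 10.01% of 9103 tested genes with a window. For this and the other words, the 32 members include Nup62cl and Kpna7, which were not tested, so the sets are not fully alike. Of the tested members with a window, 26 fell and 4 did not, and a link between the E-box and the fall was not tested. In Ipo7 the word began 137 bases before the start, and no searched word was found in the Ipo8 window. An E2F word occurred in 1 member (3.125%), Nup210, beginning 76 bases before the start, beside 4.098% of tested genes. The ETS word occurred in Ipo4, Nup155 and Nup54 (9.375% of members with a window), beside 7.261% of tested genes. A match describes the letters of the window and shows no binding, and a window with no match says nothing of the factor.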

How the data were processed

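Total RNA of sorted leukemia cells was sequenced in 6 libraries. The deposited values are whole-number counts per gene, identical in the series table and the per-sample files. The tools named per the submitters' processing notes are CASAVA 1.8.2 and featureCounts, with build mm9. Which aligner, annotation or strand setting was used was not given in the sources used here, so reads of overlapping genes on opposite strands may be mixed. Per the file headers, the table also gives a length for each gene, used for RPKM.

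Identifiers were matched to RefSeq symbols (24176 of 26286). Genes passing filterByExpr at a minimum count of 10 (12275 genes, 99.93% of counts) were scaled by TMM (factors 0.991 to 1.009) and compared with the quasi-likelihood test of edgeR 4.0.16 in R 4.3.3, without covariates, 3 dox against 3 untreated libraries. The SE is the log2 fold change divided by the square root of F. DESeq2 1.42.0 and limma 3.58.1 served as alternatives, and the fit was tested on simulated data. Exonic overlaps come from GENCODE M21 (GRCm38).

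The members and lists were chosen with earlier results of these data known. Library values are given for the smallest p of each role in each direction, for the most abundant pore and transport gene, and for members higher or not called. Library values of Nup98, the paralog ratios, the shares, the motif words and the windows shown were chosen after values had been seen.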

Additional observations from a re-analysis of the deposited data

How the results depend on the processing

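Scaling by DESeq2 size factors, upper quartile or total counts, no low-count filter, 1 CPM in 3 libraries, the DESeq2 test and limma voom each left the counts of pore and transport factor genes within 1.5 times those reported. With a minimum fold change of 1.5, 0 pore genes were higher and 7 lower, 1 transport factor gene was lower (Ipo5), 0 other pore and transport genes were higher and 6 lower, and 928 and 670 of all genes were higher and lower. Leaving out each library in turn gave 14 to 17 pore and 14 to 15 transport factor genes lower, with medians of −0.68 to −0.58 and −0.61 to −0.50. The transport factor median was −0.61 without dox replicate 3. Ipo13, at 0.0011, changed sign to −0.0048 with DESeq2 size factors and the DESeq2 test, −0.01 with total counts, limma voom and the replicate block, −0.04 without the filter, and lay between −0.06 and 0.10 when a library was left out; the cause was not tested. Same-numbered libraries had correlations of deviations of 0.305, 0.288 and −0.0373 for numbers 1, 2 and 3. The crossed pairs of numbers 1 and 2 had −0.283 and −0.336. Deviations were taken from the mean of each group, so these correlations depend on each other and are not separate evidence. Not every library correlated best with its own number, and whether same-numbered libraries share more than a number cannot be told from these values. With the replicate block, 18 pore and 15 transport factor genes were lower, 1 and 0 higher, and 3434 and 3356 of all genes were higher and lower. Depth limits Nup210l, with 53 to 92 counts a library, and Nup62cl and Kpna7, with 0.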
